A study of Mus musculus with 4 samples.

Results

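The cells described here were Foxp3+ Gpr83- regulatory T cells from cultures of stimulated splenic CD4 T cells. They were chosen by raw counts of unique molecular identifiers (UMIs), the molecule counts of droplet sequencing: at least 1 UMI of Foxp3, 0 of Gpr83, at least 1 of Ikzf2 and Lrrc32 together and at least 1 of Cd3d, Cd3e and Cd3g together. Of 19100 cells with at least 2000 UMIs, at least 500 detected genes and at most 10% mitochondrial UMIs, 359 (1.88%) met this rule. The cells that met all of it except for having Gpr83 UMIs, 284 in number, served as the closest comparison and are called Foxp3+ Gpr83+ cells. The levels of the 7 genes of the rule are therefore a description, and no test is given for them.

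Splenocytes of C57BL6/J mice had been sorted for CD3+CD4+ T cells and cultured for 6 hours with beads carrying anti-CD3 and anti-CD28 antibodies, so that every group, controls included, was stimulated. Droplet 3' single-cell libraries were made from 4 samples: 1 female and 1 male library labelled Irf5-/- and 1 female and 1 male library labelled wild type (WT). The study compared the genotypes. The labels give neither the number of mice behind a library nor their age, so that p-values measure the spread between these libraries, and no unstimulated cells were part of the series. Values of the 4 libraries are given throughout in the order female labelled knockout, male labelled knockout, female labelled wild type and male labelled wild type.

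Regulatory T cells restrain other lymphocytes, and the transcription factor Foxp3 holds their identity. Resting or central regulatory T cells recirculate through lymphoid organs and carry lymph node homing molecules, whereas effector regulatory T cells have met antigen, lose these molecules and make suppressive and tissue-repair mediators. Gpr83 encodes a G protein-coupled receptor that is typical of resting murine regulatory T cells, Ikzf2 the transcription factor Helios and Lrrc32 the surface protein GARP, which presents latent TGF-beta.

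The 4 libraries kept 6178, 6543, 1814 and 4565 cells and gave 136, 151, 13 and 59 Foxp3+ Gpr83- cells. Their summed UMIs were 818858, 1001120, 104101 and 527753, and levels are given as counts scaled to a sum of 1000000 UMIs (CPM). The female library labelled wild type was the thinnest, with 13 such cells and with 36.2% of its UMIs in droplets of free RNA, against 8.62% to 14.7% elsewhere. Irf5 itself was not lower in the libraries labelled knockout, with 12.2, 16.98, 0 and 11.4 CPM (10, 17, 0 and 6 UMIs) in Foxp3+ Gpr83- cells (pooled ratio of knockout to wild-type label 1.56, exact counting interval 0.632 to 4.63) and 8.48, 8.898, 0.942 and 1.07 CPM in all other kept cells. In all other kept cells both libraries labelled knockout thus lay above both labelled wild type. These Irf5 levels go against the label, and their cause was not tested. The reads tag the 3' end, and the labels do not say which part of the gene was deleted. Each library is named by its label. Any pair of libraries shared 2 to 14 cell barcodes among kept cells. Free RNA contained Foxp3 at 19.9 to 63.8 CPM and Ikzf2 at 58.8 to 221.7 CPM. Of 56 kept cells with B-cell or erythroid transcripts and no CD3 UMI, which should lack Foxp3, 0 had a Foxp3 UMI at a median of 13300 UMIs, which allows a share of up to 5.36% by the limit of 3 counts (exact binomial upper limit 6.38%).

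By the rule's own genes, Foxp3 (X-linked; ENSMUSG00000039521, chromosome X, 7573644 to 7595245, GRCm38) was at 530.0, 567, 480.3 and 424 CPM in Foxp3+ Gpr83- cells, 656, 565, 460.4 and 565 CPM in Foxp3+ Gpr83+ cells and 10.8, 12.5, 4.46 and 7.73 CPM in all other cells. Ikzf2 was at 1749, 1728, 1921 and 1283 CPM, and Lrrc32 was at 264, 345, 365 and 309 CPM. The groups with and without Gpr83 overlapped in Foxp3 and in Lrrc32. Of the 359 cells, 86 had 1 UMI of Foxp3, 66 had 2 and 207 had 3 or more. Cells that failed only on Foxp3, with 0 UMIs, numbered 1638 and held Areg at 7.31 CPM, whereas the 86 cells with a single Foxp3 UMI held it at 157.8 CPM. Cells that failed only on Ikzf2 and Lrrc32 numbered 144 and held Areg at 6.76 CPM and Itgb8 at 0.844 CPM. The 24 cells with a single UMI of these 2 genes held Areg at 6.06 CPM and Itgb8 at 6.06 CPM, against 168.4 and 129.9 CPM in the 335 cells with 2 or more, so that the cells just inside this threshold were low for both genes. On the Gpr83 side, 67 excluded cells had 1 UMI of it and held Maf at 53.5 CPM, and 217 had 2 or more and held Maf at 30.4 CPM.

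The 3 further genes by which this population had been marked, Hopx, Areg and Itgb8, are given with no test against the other cells, and are left out of the list counts against them. Areg encodes amphiregulin, an epidermal growth factor receptor ligand made by regulatory T cells in tissue repair (ENSMUSG00000029378, chromosome 5, 91139599 to 91148432). It was at 114, 199, 211 and 136 CPM in Foxp3+ Gpr83- cells, 117, 61.8, 242 and 13.9 CPM in Foxp3+ Gpr83+ cells and 2.57 to 4.52 CPM in all other cells. Every library of Foxp3+ Gpr83- cells lay above every library of other cells, but the Foxp3+ Gpr83+ cells overlapped them, and the difference from these was not called (log2 0.98, SE 0.31, adjusted p = 0.0668). Over the alternative settings its adjusted p ranged from 6.44e-06 to 0.678, with a call in 6 of them, among them at least 2 Foxp3 UMIs and no filter on low counts. Itgb8 encodes the integrin chain that activates latent TGF-beta (ENSMUSG00000025321, chromosome 12, 119158022 to 119238802). It was at 121, 118, 154 and 123 CPM, 98.8, 91.5, 67.9 and 37.6 CPM and 1.13 to 3.21 CPM in the same order of populations. Hopx, a homeodomain-only protein linked to the persistence of induced regulatory T cells, was at 626, 364, 711 and 441 CPM, against 302, 302, 189 and 283 CPM in Foxp3+ Gpr83+ cells. All 4 Foxp3+ Gpr83- values of Hopx were higher, by a fitted log2 difference of 0.69 (SE 0.16, adjusted p = 0.0139); the call was lost without the female library labelled knockout (adjusted p = 0.0913) and without the male library labelled wild type (0.144). The sums hid wide differences between cells: Hopx was detected in 230 of the 359 cells (64.1%), Itgb8 in 128 (35.6%) and Areg in 86 (23.96%), and the 5 cells richest in Areg held 32.9% of its UMIs.

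**Figure D1:**
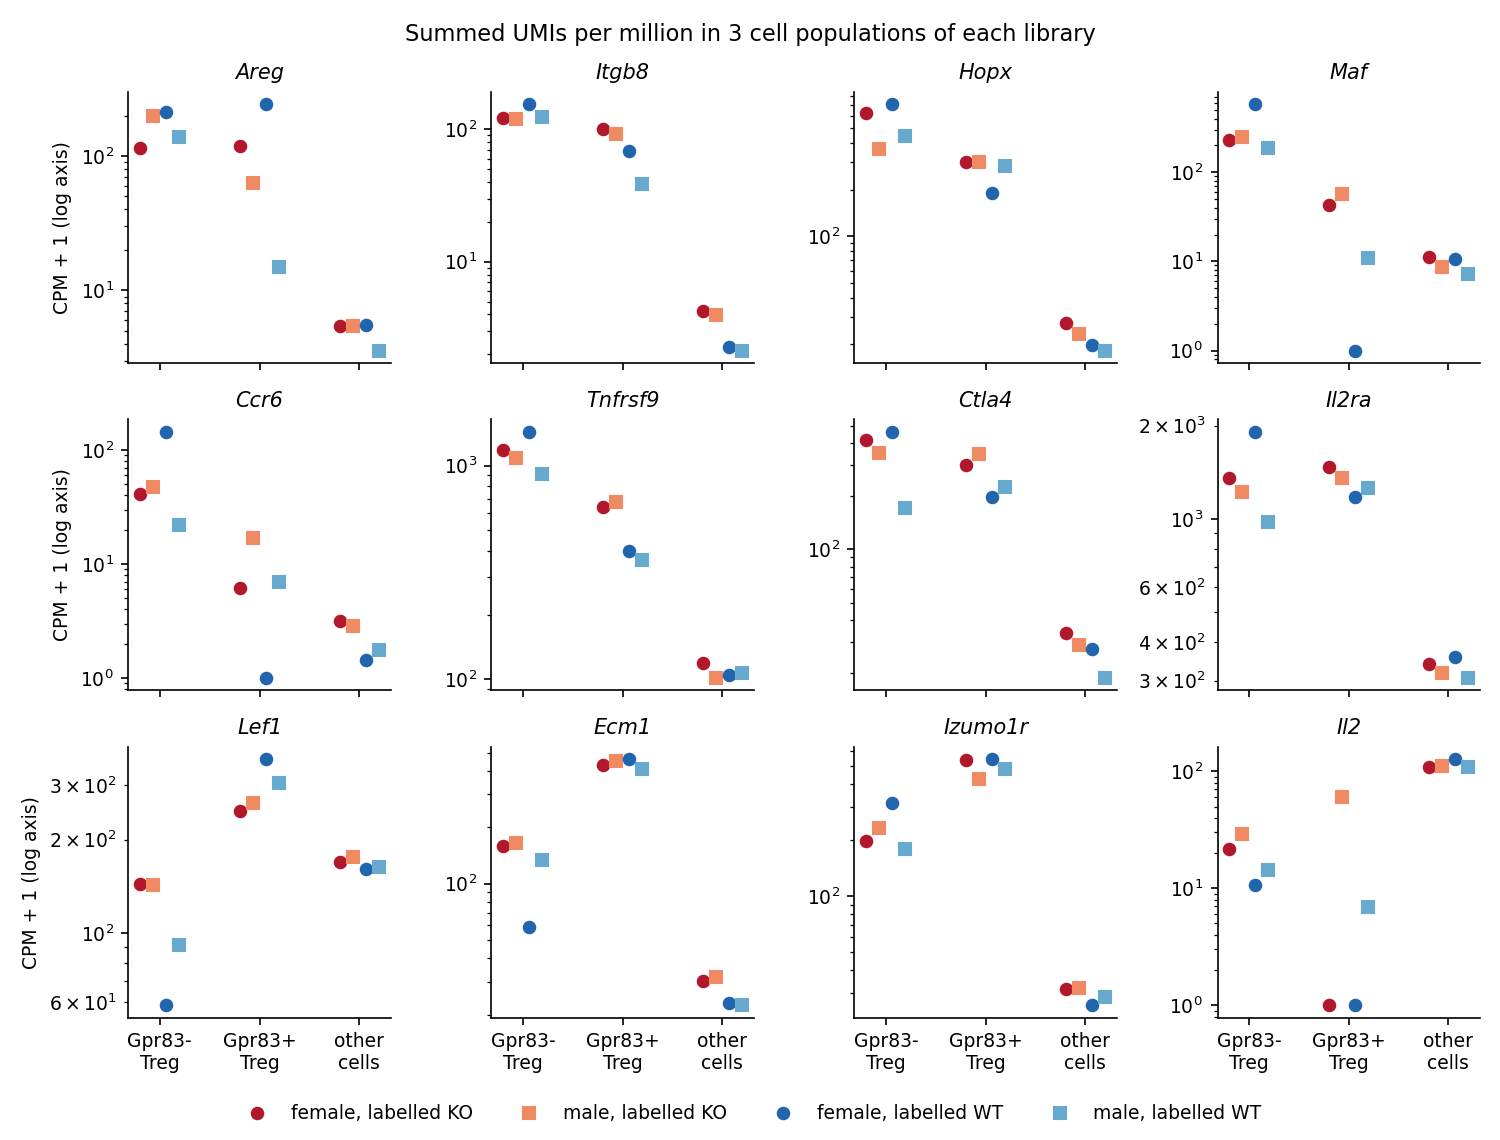
CPM plus 1 (log axis) of 12 genes in Foxp3+ Gpr83- cells (Gpr83- Treg), Foxp3+ Gpr83+ cells (Gpr83+ Treg) and all other cells; each point is 1 of the 4 libraries, coloured by genotype label, with circles for female and squares for male. Areg, Itgb8 and Hopx were above the other cells in both Foxp3+ populations, Maf stood out in Gpr83- cells, and Lef1 and Ecm1 were higher in Gpr83+ cells than in Gpr83- cells in all 4 libraries.

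The sums of the Foxp3+ Gpr83- cells were then compared with the sums of all other kept cells of the same library, with the library as a term in edgeR's quasi-likelihood model. Among 10413 genes tested outside the rule, 3111 (29.9%) were called at an adjusted p under 0.05. Of all tested, 1524 (14.6%), the markers Areg, Hopx and Itgb8 included, were higher and 1587 (15.2%) were lower. These shares stand beside every list count against all other cells below. Scaled to total UMIs without TMM factors, a choice made after seeing the data, the split was 2513 higher and 697 lower, since the median gene moved from a log2 difference of -0.03 to 0.20; the direction of no called gene of the lists below changed. Median UMIs per cell were 4962, 5697, 8152 and 7350 in Foxp3+ Gpr83- cells and 5107, 6762, 8418 and 9684 in other cells. With cells of both populations held to the interquartile UMI range of the Foxp3+ Gpr83- cells, 923 genes were higher and 1050 lower.

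Genes of the core regulatory T-cell program were higher. On the Treg identity list without Itgb8, 18 of 18 tested genes were higher and 0 were lower, with a median log2 difference of 2.61. The cells had been chosen by Foxp3 with Ikzf2 or Lrrc32, and this list and those below with earlier results of these data known. A high count on this list was therefore likely in advance, and it is given as a description. Entpd1, an ectonucleotidase, reached the level of the low-count filter in Foxp3+ Gpr83- cells alone, and 17 of the other 17 were higher (median 2.59). Penk, which encodes the opioid precursor proenkephalin, was at 123, 101, 231 and 96.6 CPM against 0.762 to 8.96 CPM in other cells, a log2 difference of 4.49 (SE 0.20, adjusted p = 1.62e-89). Its counts were concentrated, with 72.2% of the UMIs in 5 of the 21 cells that held any. Ikzf4, encoding the Helios relative Eos, was at 219, 204, 192 and 167 CPM against 19.4, 16.3, 14.4 and 9.95 CPM, and rose by 3.47 on the log2 scale (SE 0.12). Ctla4, the inhibitory receptor that removes B7 ligands from antigen-presenting cells, was at 412, 351, 461 and 171 CPM against 17.8 to 32.7 CPM. The 4 values of Ctla4 lay above all values of the other cells, with a log2 difference of 3.39 (SE 0.10, adjusted p = 2.15e-169), and the lowest of the 4 came from male cells labelled wild type. Nrp1, a semaphorin receptor of thymus-derived regulatory T cells, was higher by log2 4.13 (SE 0.25), and Socs2, a feedback inhibitor of cytokine signalling, by 3.79 (SE 0.22). Il2ra, the high-affinity chain of the IL-2 receptor, was at 1356, 1222, 1912 and 976 CPM against 337, 316, 356 and 305 CPM, a smaller log2 difference of 1.73 (SE 0.08, adjusted p = 2.00e-84); stimulated conventional T cells are known to express it too.

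Genes of activated or effector regulatory T cells formed the second group. On that list without the markers Areg and Hopx, 17 of 22 tested genes were higher and 1 was lower, with a median log2 difference of 2.50. Klrg1 and Il1rl1 reached the level of the low-count filter in Foxp3+ Gpr83- cells alone, and of the other 20 genes 15 were higher and 1 was lower. Maf, a transcription factor of effector and IL-10-producing T cells (ENSMUSG00000055435, chromosome 8, 115682942 to 115707794), was at 229.6, 248, 576 and 184 CPM against 10.3, 7.61, 9.67 and 6.25 CPM, a log2 difference of 4.71 (SE 0.12, adjusted p = 1.38e-220). Each Foxp3+ Gpr83- library lay far above each library of other cells. Il1rl1, the receptor of the tissue alarmin IL-33, was at 59.8, 28.97, 19.2 and 20.8 CPM against 0.414 to 1.17 CPM, a log2 difference of 5.14 (SE 0.40) given as a description, and was detected in 28 of the 359 cells. Tnfrsf9, encoding the costimulatory receptor 4-1BB, was among the most broadly detected of the group (81.9% of the cells). It was at 1181, 1083, 1441 and 913 CPM against 118, 101, 104 and 107 CPM, higher by 3.12 (SE 0.08) on the log2 scale. Tnfrsf4, encoding OX40, was at 2366, 2793, 3304 and 2594 CPM against 265 to 423 CPM, with a log2 difference of 2.72 (SE 0.08, adjusted p = 3.76e-165). The AP-1 family factor Batf, needed for effector regulatory T cells in tissues, was at 383, 269, 231 and 199 CPM against 50.1, 40.8, 40.3 and 30.2 CPM and higher by 2.54 (SE 0.10). Rora, an orphan nuclear receptor, was higher by 2.66 (SE 0.11), and the memory and effector genes Pdcd1 and S100a4 by 2.45 (SE 0.20) and 2.94 (SE 0.29). The exception was Irf4, a factor induced by T-cell receptor signals, which was at 424, 480.5, 288 and 407 CPM against 693, 675, 663 and 638 CPM and differed by log2 -0.91 (adjusted p = 4.45e-22).

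Most secreted and surface mediators of suppression were higher as well. On that list without Areg and Itgb8, 9 of 12 tested genes were higher and 1 was lower, with a median log2 difference of 3.04. Entpd1 and Il1rn reached the level of the low-count filter in Foxp3+ Gpr83- cells alone, and of the other 10 genes 7 were higher and 1 was lower, with a median of 2.57. Il1r2, a decoy receptor that binds IL-1 without signalling, was at 63.5, 43.95, 28.8 and 32.2 CPM against 0.501 to 1.89 CPM, a log2 difference of 4.94 (SE 0.36, adjusted p = 5.85e-39). Ebi3, a subunit of IL-27 and IL-35, was at 42.7, 36.96, 28.8 and 22.7 CPM against 0.784 to 1.797 CPM (log2 4.45, SE 0.37). Il1rn, the IL-1 receptor antagonist, was present at 16, 6, 2 and 5 UMIs and at 0 to 0.2696 CPM in other cells. Il10 rested on few cells: 6 of the 359 cells held 34 UMIs, 23 of them in 1 cell of the female library labelled wild type. Tgfb1, which nearly all T cells express, was at 115, 179.8, 144 and 163 CPM against 111, 121, 131 and 120.1 CPM and was not called. The PD-1 ligand gene Cd274 was lower, by log2 -0.45 (SE 0.11), and lost its call under 2 alternatives (adjusted p up to 0.13).

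The 12 genes with the largest positive differences among those that passed the rule for named genes were, besides genes given in other paragraphs (the markers Areg and Itgb8 among them), Metrnl, Lamc1, Ccr6, Ttc39c, Myo1e and Gm28112. Ccr6, the receptor of the chemokine CCL20, was at 40.3, 45.9, 144 and 20.8 CPM against 0.4396 to 2.13 CPM, a log2 difference of 4.84 (SE 0.35, adjusted p = 2.57e-39). Metrnl, a secreted meteorin-like cytokine, was at 69.6, 40.95, 86.5 and 53.1 CPM against 0.631 to 2.67 CPM (log2 4.90, SE 0.31), and Lamc1, the laminin gamma-1 chain, which reached the level of the filter in Foxp3+ Gpr83- cells alone, at 20.8, 28.97, 48.03 and 22.7 CPM against 0.565 to 0.959 CPM (log2 4.86, SE 0.41). The other 3 genes had log2 differences of 4.64 (Ttc39c), 4.61 (Myo1e, an unconventional myosin) and 4.57 (Gm28112).

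Calls among costimulatory, inhibitory and trafficking receptors were mostly higher, beside 14.6% higher and 15.2% lower over all genes tested. Of the trafficking receptors, 9 of 20 tested genes were higher and 3 were lower, with a median log2 difference of 0.55. The integrin chain Itgav was at 172, 161, 231 and 144 CPM against 34.3, 30.2, 35.5 and 30.3 CPM, higher by 2.14 (SE 0.11), and the follicular homing receptor Cxcr5 by 2.73 (SE 0.54, from 20 UMIs in all), whereas Ccr7 and S1pr1 were lower. Of the costimulatory and inhibitory receptors, 12 of 17 tested genes were higher and 1 was lower, with a median log2 difference of 0.70; the lower gene was Cd28. Of IL-2 and STAT5 signalling genes, 9 of 14 tested genes were higher and 0 were lower, with a median log2 difference of 0.75. They included the feedback inhibitor Cish, at 474, 555, 663 and 436 CPM against 209.9, 201, 223 and 125 CPM (log2 1.23, SE 0.08), and the survival gene Bcl2l1, at 223, 236, 269 and 222 CPM against 98.7, 92.03, 97.8 and 80.1 CPM (log2 1.10, SE 0.10).

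Cytokines and ligands of helper T cells showed the opposite picture. On the list of helper cytokines and ligands, 3 of 16 tested genes were higher and 7 were lower, with a median log2 difference of -0.65. Xcl1 reached the level of the filter in the other cells alone, and of the remaining 15 genes 3 were higher and 6 lower, with a median of -0.44. Il2, which conventional T cells make on stimulation and Foxp3 represses, was at 20.8, 27.97, 9.61 and 13.3 CPM against 108, 109, 126 and 107 CPM, and differed by log2 -2.58 (SE 0.17, adjusted p = 2.48e-45). Each Foxp3+ Gpr83- library lay below each library of other cells. Tnfsf11, encoding RANKL, was at 46.4, 53.9, 0 and 39.8 CPM against 174, 182, 232 and 164 CPM, with a log2 difference of -2.21 (SE 0.14, adjusted p = 2.65e-52). Cd40lg, the ligand by which helper cells activate B cells, was at 13.4, 16.98, 57.6 and 30.3 CPM against 71.8, 67.8, 79.1 and 70.1 CPM and differed by -1.99 (SE 0.18). Fasl, the death ligand, was at 4.88, 7.99, 9.61 and 1.89 CPM against 24.5, 30.2, 36.4 and 25.6 CPM, a log2 difference of -2.50 (SE 0.31, adjusted p = 2.46e-14). The lymphotoxin genes Lta and Ltb were higher instead, by 1.03 (SE 0.12) and 0.55 (SE 0.08). Il13 was also called higher, but 29 of its 38 UMIs came from 1 cell of the male library labelled wild type, which also held 27 of the 30 UMIs of Il4 and 9 UMIs of Zbtb16, a factor of innate-like T cells.

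Early T-cell receptor response genes were mostly lower than in the other cells, which had received the same beads. On that list, 5 of 24 tested genes were higher and 16 were lower, with a median log2 difference of -0.45; without TMM factors 7 were higher and 11 lower. Egr3, an immediate early zinc-finger factor, was at 23.2, 14.98, 19.2 and 15.2 CPM against 66.6, 75.5, 89.7 and 72.6 CPM, a log2 difference of -2.24 (SE 0.19, adjusted p = 3.92e-29). Cd69, an early activation antigen that retains cells in lymphoid tissue, was at 551, 869, 624 and 841 CPM against 1329, 1406, 1433 and 1446 CPM (log2 -1.20, SE 0.09), and the orphan receptor gene Nr4a1 at 214, 428, 586 and 438 CPM against 560.1, 567, 650.0 and 539 CPM (log2 -0.84, SE 0.09). The 5 higher genes were Tnfaip3, Nfkbia, Junb, Rel and Zfp36l1, of which the first 2 encode inhibitors of NF-kappaB and Rel one of its subunits. Nfkbia was at 1133, 1320.5, 1691 and 1218 CPM against 483, 487, 430.4 and 419.9 CPM, higher by 1.25 (SE 0.08). The working name calls the population activated, while most early response genes were lower than in these equally stimulated cells, and the cells are called here by their Foxp3 and Gpr83 counts.

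Genes of growth and of the resting state were lower. Of growth and biosynthesis genes, 3 of 22 tested genes were higher and 16 were lower, with a median log2 difference of -0.52; without TMM factors 3 were higher and 10 lower. Npm1, a nucleolar protein of ribosome assembly, was at 2523, 2655, 3218 and 2755 CPM against 3941, 4006, 4134 and 4153 CPM (log2 -0.82, SE 0.09), and Tfrc, the transferrin receptor, at 223, 188, 221 and 171 CPM against 260.1, 267, 281 and 269.6 CPM (log2 -0.67, SE 0.10). Of resting T-cell and recirculation genes, 0 of 18 tested genes were higher and 17 were lower, with a median log2 difference of -0.88; without TMM factors 0 were higher and 12 lower. The chromatin organiser Satb1 was at 580.1, 763, 231 and 707 CPM against 1678, 1683, 1736 and 1401 CPM, a log2 difference of -1.63 (SE 0.09, adjusted p = 1.51e-62), and the quiescence factor Foxp1 at 307, 384, 279 and 326 CPM against 693, 646, 705 and 691 CPM (log2 -1.27, SE 0.09).

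The counts of the next 3 lists stand beside 14.6% higher and 15.2% lower over all genes tested. Among transcription factors of T cells, 11 of 24 tested genes were higher and 9 were lower, with a median log2 difference of 0.29. Gata3, the type 2 lineage factor that regulatory T cells also use, was at 398, 339, 720.5 and 313 CPM against 67.7, 54.4, 49.8 and 25.7 CPM, a log2 difference of 2.77 (SE 0.10, adjusted p = 1.24e-139). Of interferon response genes, 10 of 25 tested genes were higher and 5 were lower, with a median log2 difference of 0.31: Isg15 was at 144, 115, 76.8 and 127 CPM against 99.8, 61.2, 73.2 and 32.1 CPM (log2 0.73, SE 0.12), and Gbp2, a guanylate-binding protein, at 479.9, 541, 192 and 622 CPM against 832, 739, 852 and 579 CPM (log2 -0.79, SE 0.09). The call of Gbp2 was lost with DESeq2 (adjusted p = 0.0716) and that of Isg15 under 1 alternative (0.0948). Of genes of cell death and survival, 5 of 15 tested genes were higher and 5 were lower, with a median log2 difference of -0.01.

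Of the 12 named genes with the largest negative differences, Jchain, an antibody component of plasma cells, and the haemoglobin genes Hbb-bs, Hba-a1, Hbb-bt and Hba-a2 belong to other cell types. Their levels in the other cells came mostly from the female library labelled wild type for haemoglobin, where Hbb-bs was at 704 CPM against at most 14.0 CPM in the other libraries; Foxp3+ Gpr83- cells held 8 UMIs of Hbb-bs, all in 1 cell. Bend4, Mirt1 and Pde3b, the last a phosphodiesterase of cyclic AMP, were lower by log2 -2.43, -2.24 and -2.16.

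**Figure D2:**
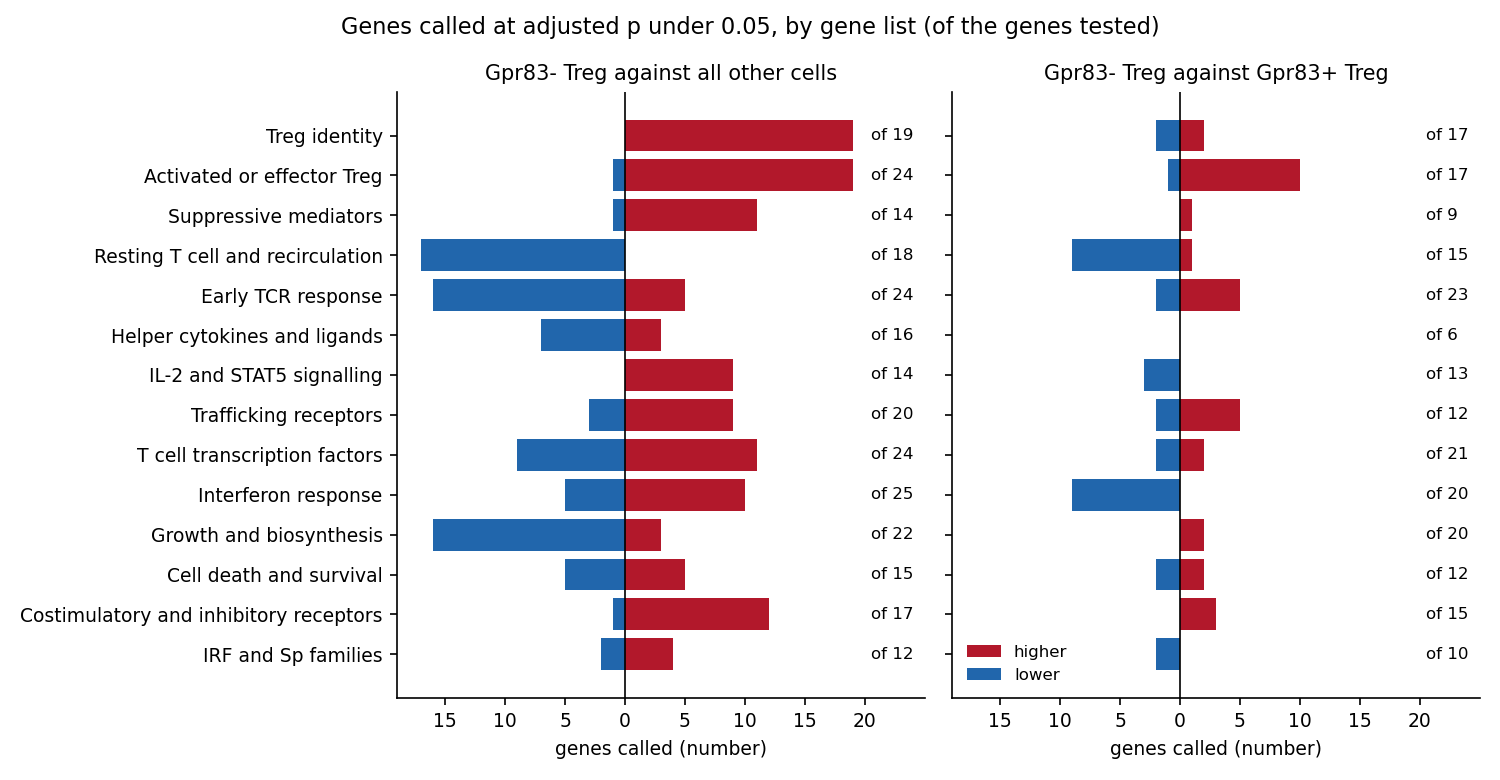
Number of genes called higher (red, right) or lower (blue, left) at an adjusted p under 0.05 on each of 14 gene lists, for Foxp3+ Gpr83- cells (Gpr83- Treg) against all other cells and against Foxp3+ Gpr83+ cells (Gpr83+ Treg); the number of genes tested stands at the right. The bars against all other cells include the markers Areg, Hopx and Itgb8 in the lists that hold them. Of the identity genes, 19 of 19 were higher than in other cells, Itgb8 included, and 2 of 17 were higher than in Gpr83+ cells, whereas 10 of 17 effector genes were higher in the second comparison, 3 of them genes that reached the level of the low-count filter in Gpr83- cells alone.

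Within Foxp3+ cells, the comparison with Foxp3+ Gpr83+ cells asked what varied with Gpr83 once Foxp3, Helios or GARP and CD3 were required of both. Both comparisons use the same Foxp3+ Gpr83- sums, so that their results are not independent. Of 5739 genes tested outside the rule, 355 (6.19%) were called; 122 (2.13%) were higher and 233 (4.06%) were lower in Foxp3+ Gpr83- cells; without TMM factors the split was 168 higher and 144 lower. The count of 355 fell to 79 without the male library labelled wild type, to 128 without the male and to 214 without the female library labelled knockout, and was 437 without the female library labelled wild type. In cells with at least 4000 UMIs 111 genes were called, all among the 355. Of 47 called genes whose differences from Foxp3+ Gpr83+ cells are given in the text, 25 lost their call under at least 1 alternative, 18 of them without the male library labelled wild type and 12 without the male library labelled knockout. They were Atp2b4, Bcl2, Bhlhe40, Cd74, Cd83, Egr1, Egr3, Gbp2, Hopx, Id2, Il7r, Itga4, Jaml, Klf2, Lilr4b, Ly6a, Ms4a4c, Myb, Nav2, Nfkbia, Penk, Rora, S100a6, S1pr1 and Zbp1, with largest adjusted p values from 0.0539 (Atp2b4) to 0.424 (Itga4). Of these, Atp2b4, Lilr4b, Nav2 and S100a6 reached the level of the low-count filter in Foxp3+ Gpr83- cells alone. Ms4a4c reached it in Foxp3+ Gpr83+ cells alone, and the calls of such genes are a description. Median UMIs per cell were 4962, 5697, 8152 and 7350 in Foxp3+ Gpr83- cells and 3793, 5099, 5988 and 6692 in Foxp3+ Gpr83+ cells. The cells without Gpr83 were thus the deeper ones, and a cell with few Gpr83 transcripts can still be read as 0. Pooled over libraries, Foxp3+ Gpr83- cells were 55.8% of both kinds, and 65.3% with each cell thinned to 2000 UMIs before the rule. The part of detection in this split was not tested.

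Regulatory T-cell identity genes went both ways between the Foxp3+ populations. On the Treg identity list, 2 of 17 tested genes were higher and 2 were lower, with a median log2 difference of 0.12, so that 4 of 17 were called, against 6.19% of all genes tested. Il2ra was at 1356, 1222, 1912 and 976 CPM against 1464, 1349.7, 1177 and 1258 CPM, and Ikzf4 at 219, 204, 192 and 167 CPM against 252, 152, 204 and 109 CPM, and neither was called (log2 -0.14, SE 0.12, and 0.12, SE 0.16). Over the alternative settings the adjusted p of Il2ra ranged from 0.00978 to 0.991, so that its call depended on the setting. The genes that were higher were Cd83 and Penk, and those that were lower were Izumo1r and Socs2. Izumo1r, the folate receptor family member FR4 of regulatory T cells, was at 198, 232, 317 and 178 CPM against 538, 425, 543 and 479.5 CPM, a log2 difference of -1.27 (SE 0.13, adjusted p = 6.38e-06), and all 4 libraries moved the same way. Cd83, an activation-induced surface molecule, was at 287, 361, 528 and 352 CPM against 203, 222, 242 and 218 CPM (log2 0.60, SE 0.13).

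Among effector genes called against Foxp3+ Gpr83+ cells, all but Myb were higher in Foxp3+ Gpr83- cells. On the effector list, 10 of 17 tested genes were higher and 1 was lower, with a median log2 difference of 0.98. Over all genes tested, 2.13% were higher and 4.06% lower. Of the 17, S100a4, S100a6 and Pdcd1 reached the level of the low-count filter in Foxp3+ Gpr83- cells alone, which tilts the count and the median upwards; of the other 14 genes 7 were higher and 1 was lower, with a median log2 difference of 0.66. S100a4, a calcium-binding protein of memory and effector T cells (ENSMUSG00000001020, chromosome 3, 90603771 to 90606045), was at 35.4, 26.97, 48.03 and 41.7 CPM (29, 27, 5 and 22 UMIs), while the 284 Foxp3+ Gpr83+ cells held 1 UMI in all. Given as a description, the ratio of the pooled levels was 62.0, with an exact counting interval of 10.8 to 2477. This interval, like that of Klrg1 below, takes UMIs as independent. Of the 83 UMIs of S100a4 in Foxp3+ Gpr83- cells, 43.4% came from 5 cells. Maf was at 229.6, 248, 576 and 184 CPM against 41.6, 55.6, 0 and 9.91 CPM, with no overlap of the groups and a log2 difference of 2.75 (SE 0.29, adjusted p = 5.67e-06). S100a6 was at 101, 26.97, 76.8 and 26.5 CPM against 2.601, 13.6, 7.55 and 1.98 CPM, a log2 difference of 2.48 (SE 0.45) given as a description. Without the female library labelled knockout its difference was log2 1.69, and it was not called. Pdcd1, encoding PD-1, was at 67.2, 52.9, 67.2 and 77.7 CPM against 10.4, 17.3, 7.55 and 5.94 CPM, a log2 difference of 2.30 (SE 0.32) given as a description. Rora was at 217, 208, 259 and 188 CPM against 98.8, 65.5, 106 and 39.6 CPM (log2 1.49, SE 0.18), and Batf at 383, 269, 231 and 199 CPM against 213, 127, 106 and 43.6 CPM (log2 1.10, SE 0.17). In all 4 libraries both genes were higher in the Foxp3+ Gpr83- cells of that library. Tnfrsf9 was at 1181, 1083, 1441 and 913 CPM against 639.9, 679, 400.0 and 361 CPM, with the lowest Gpr83- value above the highest Gpr83+ value and a log2 difference of 0.98 (SE 0.14, adjusted p = 1.74e-04). Klrg1, a receptor of terminally differentiated effector cells, was too scarce to be tested, with 14, 15, 2 and 6 UMIs in Foxp3+ Gpr83- cells and 1 UMI in Foxp3+ Gpr83+ cells, a pooled ratio of 27.6 with a counting interval of 4.66 to 1120. The 1 lower gene of the list was Myb, a stemness factor, at 126, 119.9, 134 and 87.2 CPM against 208, 214, 174 and 133 CPM (log2 -0.81, SE 0.14).

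The 12 named genes with the largest positive differences also included Lilrb4a, Lilr4b, Ttc39c, Nav2, Atp2b4, Ccr6 and Il1r2. All 7 reached the level of the low-count filter in Foxp3+ Gpr83- cells alone, so that their differences are given as a description. Lilrb4a, an inhibitory leukocyte immunoglobulin-like receptor, was at 62.3, 64.9, 48.03 and 26.5 CPM against 2.601, 4.94, 0 and 0 CPM, a log2 difference of 4.08 (SE 0.44). Its close relative Lilr4b was at 30.5, 28.97, 48.03 and 30.3 CPM against 0, 11.1, 7.55 and 0 CPM (log2 2.42, SE 0.53); these genes are similar in sequence, so that reads may have been split or shared between them. Ccr6 was at 40.3, 45.9, 144 and 20.8 CPM against 5.203, 16.1, 0 and 5.94 CPM (log2 2.09, SE 0.40), and Il1r2 at 63.5, 43.95, 28.8 and 32.2 CPM against 7.804, 17.3, 0 and 1.98 CPM (log2 2.09, SE 0.38). In every library both genes were higher in Foxp3+ Gpr83- cells. Penk differed by log2 2.29 (SE 0.37) with the same concentration in few cells as above. The remaining genes differed by 2.96 (Ttc39c), 2.31 (Nav2) and 2.16 (Atp2b4, a plasma membrane calcium pump).

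Recirculation and quiescence genes were lower in Foxp3+ Gpr83- cells than in Foxp3+ Gpr83+ cells. On that list, 1 of 15 tested genes were higher and 9 were lower, with a median log2 difference of -0.66, beside 2.13% higher and 4.06% lower over all genes tested. Klf2, a factor that maintains S1pr1 expression, was at 214, 251, 48.03 and 219.8 CPM against 343, 407, 438 and 449.8 CPM (log2 -1.04, SE 0.18). S1pr1, the receptor by which lymphocytes leave lymphoid organs, was at 54.95, 39.95, 48.03 and 22.7 CPM against 62.4, 84.05, 128 and 93.1 CPM (log2 -1.14, SE 0.24), and the quiescence factor Lef1 at 143, 142, 57.6 and 90.95 CPM against 247, 261, 362 and 303 CPM (log2 -1.29, SE 0.18). All 3 genes were lower in all 4 libraries. Bcl2, the anti-apoptotic gene, was at 283, 345, 86.5 and 176 CPM against 484, 409, 460.4 and 382 CPM (log2 -0.90, SE 0.18). Il7r, encoding the IL-7 receptor, was the 1 gene of the list that went the other way, at 92.8, 71.9, 57.6 and 83.4 CPM against 18.2, 33.4, 15.1 and 75.3 CPM, a log2 difference of 0.93 (SE 0.27, adjusted p = 0.0445). This call was lost under 7 alternatives, DESeq2 among them, with adjusted p up to 0.301.

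The named genes with the largest negative differences included Itih5, Zscan29, Atp1b1, Ppm1l, Treml2, Ly6c1, Ms4a4c, Jaml, Pitpnc1, Ecm1 and Zfp652. Itih5, an inter-alpha-trypsin inhibitor heavy chain of the extracellular matrix, was at 32.97, 32.96, 57.6 and 60.6 CPM against 174, 167, 204 and 174 CPM, a log2 difference of -2.17 (SE 0.18, adjusted p = 1.01e-06), and at 3.42 to 5.08 CPM in all other cells. Ecm1, an extracellular matrix protein of activated T cells, was at 158, 163, 57.6 and 133 CPM against 427, 449, 460.4 and 408 CPM (log2 -1.69, SE 0.15) and 29.4, 30.6, 22.2 and 21.5 CPM in all other cells. Both genes thus had their highest level in Foxp3+ Gpr83+ cells and an intermediate one in Foxp3+ Gpr83- cells. Ly6c1, a surface antigen of naive and central memory cells, was at 39.1, 72.9, 106 and 201 CPM against 289, 256, 430.2 and 426 CPM (log2 -1.90, SE 0.20). The other genes differed by log2 -2.16 (Zscan29), -1.99 (Atp1b1), -1.97 (Ppm1l), -1.91 (Treml2), -1.85 (Ms4a4c), -1.83 (Jaml), -1.74 (Pitpnc1) and -1.68 (Zfp652); Ppm1l, Treml2 and Ms4a4c reached the level of the low-count filter in Foxp3+ Gpr83+ cells alone.

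Interferon response genes were lower in Foxp3+ Gpr83- cells wherever they were called against Foxp3+ Gpr83+ cells. On that list, 0 of 20 tested genes were higher and 9 were lower, with a median log2 difference of -0.62; without TMM factors 0 were higher and 5 lower. Gbp2 was at 479.9, 541, 192 and 622 CPM against 809, 764, 883 and 987 CPM (log2 -0.91, SE 0.16), and Zbp1, a sensor of left-handed nucleic acid, at 134, 93.9, 76.8 and 75.8 CPM against 192, 141, 294 and 166 CPM (log2 -0.91, SE 0.17). Ly6a, encoding Sca-1, was at 453, 535, 451 and 529 CPM against 671, 660.0, 739.6 and 850.0 CPM, a log2 difference of -0.64 (SE 0.12, adjusted p = 0.00172). All 3 genes were lower in each of the 4 libraries, but each lost its call under 1 alternative (adjusted p 0.0549 for Gbp2, 0.0948 for Zbp1 and 0.0937 for Ly6a).

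The counts of the other lists stand beside 2.13% higher and 4.06% lower over all genes tested. Of early response genes, 5 of 23 tested genes were higher and 2 were lower, with a median log2 difference of 0.13. Bhlhe40, a basic helix-loop-helix repressor, was at 143, 165, 163 and 244 CPM against 49.4, 98.9, 83.02 and 81.2 CPM (log2 1.07, SE 0.18), and Nfkbia at 1133, 1320.5, 1691 and 1218 CPM against 1028, 873, 672 and 676 CPM (log2 0.56, SE 0.13), while Egr1 and Egr3 were lower, by -0.95 (SE 0.17) and -1.20 (SE 0.31). Of the trafficking receptors, 5 of 12 tested genes were higher and 2 were lower, with a median log2 difference of 0.52, among them Itgav at 172, 161, 231 and 144 CPM against 62.4, 90.2, 60.4 and 75.3 CPM (log2 1.01, SE 0.17) and Itga4, the alpha-4 integrin chain, at 107, 148, 346 and 125 CPM against 72.8, 64.3, 37.7 and 81.2 CPM (log2 0.97, SE 0.22). Of T-cell transcription factors, 2 of 21 tested genes were higher and 2 were lower, with a median log2 difference of 0.25; Id2, an inhibitor of helix-loop-helix factors in effector cells, was at 86.7, 90.9, 163 and 89.1 CPM against 33.8, 49.4, 7.55 and 17.8 CPM (log2 1.40, SE 0.27). Of IL-2 and STAT5 genes, 0 of 13 tested genes were higher and 3 were lower, with a median log2 difference of 0.01. Of growth genes, 2 of 20 tested genes were higher and 0 were lower, with a median log2 difference of 0.17, the higher ones being Odc1, the first enzyme of polyamine synthesis, at 1000.2, 1072, 1009 and 1448 CPM against 544, 672, 355 and 531 CPM (log2 0.96, SE 0.13), and Hspd1. Of cell death and survival genes, 2 of 12 tested genes were higher and 2 were lower, with a median log2 difference of 0.08. Of costimulatory and inhibitory receptors, 3 of 15 tested genes were higher and 0 were lower, with a median log2 difference of 0.13. Of suppressive mediators, 1 of 9 tested genes were higher and 0 were lower, with a median log2 difference of 0.59, Il1r2 being the higher one; 0 of the other 8 were called, with a median of 0.37. Of IRF and Sp family genes, 0 of 10 tested genes were higher and 2 were lower, with a median log2 difference of -0.43; these were Irf2 and Sp100. None of the 6 tested helper cytokine genes was called. Il1r2, Ccr6 among the trafficking receptors and Pdcd1 among the inhibitory receptors reached the level of the filter in Foxp3+ Gpr83- cells alone.

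Cells within the population differed among themselves. After each cell was thinned to 2000 UMIs, the 26 genes of the effector list gave medians of 13, 12, 16 and 12 UMIs per Foxp3+ Gpr83- cell and of 7, 8, 4 and 5 UMIs per Foxp3+ Gpr83+ cell in the 4 libraries. The 18 genes of the resting list gave medians of 4, 5, 2 and 4 UMIs and of 7, 7, 9 and 8 UMIs. These medians follow from the genes compared above and are given as a description. The distributions overlapped widely, so that a cell was not assigned to either population by these sums. In the thinned cells, Maf had a UMI in 23.96% of Foxp3+ Gpr83- cells, in 3.87% of Foxp3+ Gpr83+ cells and in 1.29% of all other cells. Detection of effector genes overlapped within cells: of the 86 cells with a UMI of Areg, 60.5% had one of Itgb8, 38.4% one of Lilrb4a and 4.65% one of Ly6c1, against 27.8%, 8.06% and 20.9% of the 273 cells without. These co-detection shares are not corrected for the depth of single cells.

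**Figure D3:**
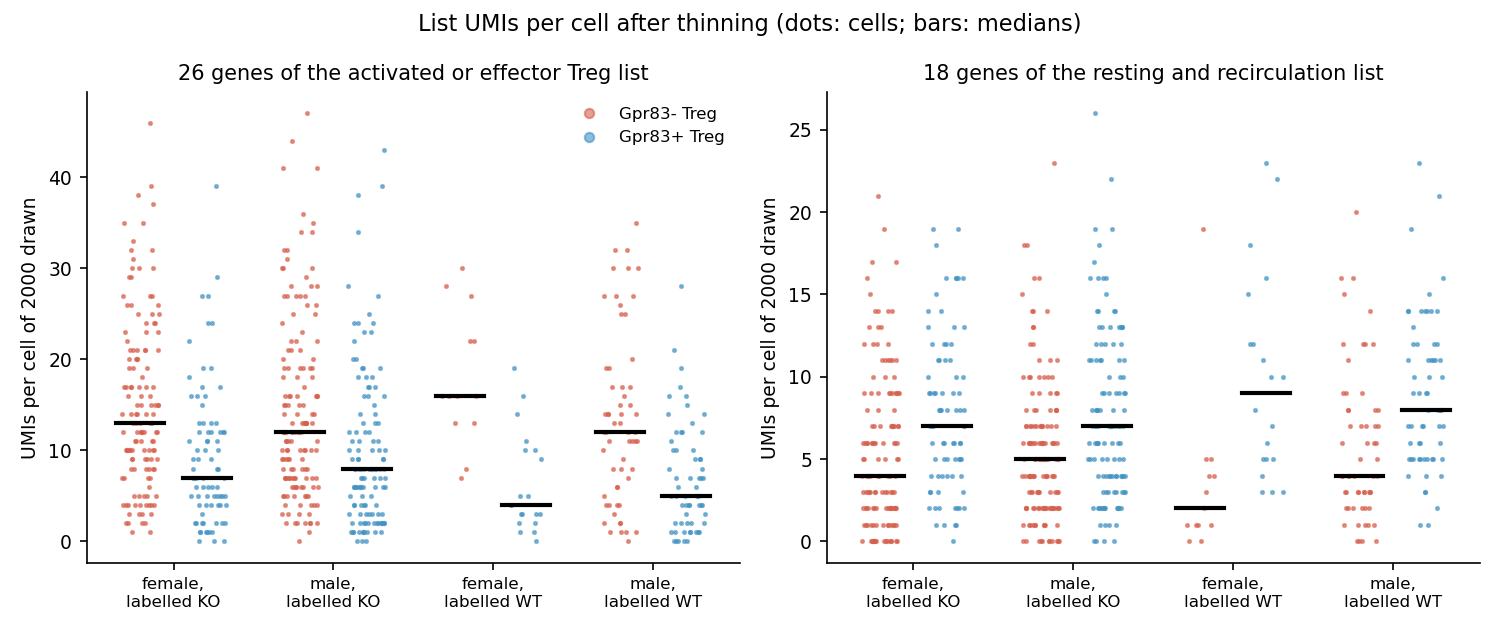
UMIs of the effector list (left) and of the resting list (right) per cell after thinning to 2000 UMIs, for the 359 Foxp3+ Gpr83- cells (red) and the 284 Foxp3+ Gpr83+ cells (blue) of the 4 libraries; dots are cells and black bars are medians. Effector medians were 12 to 16 in Gpr83- cells and 4 to 8 in Gpr83+ cells, with wide overlap between single cells.

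Genes of other cell types were looked at in the same sums. Of 13 B-cell genes, several, Ms4a1, Ebf1 and Iglc2 among them, were at 0 in all Foxp3+ Gpr83- cells and Cd79a had 1 UMI. The list summed to 208.4 to 518.7 CPM in these cells, 53.5 to 181.1 CPM in Foxp3+ Gpr83+ cells and 70.8 to 573.8 CPM in all other cells. Of its 7 genes tested against all other cells, Cd79b, Ighm and Cd74 were called higher. The other 4, Igkc, H2-Aa, H2-Ab1 and H2-Eb1, were called lower. With DESeq2, 1 gene was higher and 0 were lower. Ighm, the constant region of the IgM heavy chain, was at 171, 125, 461 and 104 CPM in Foxp3+ Gpr83- cells, 36.4, 44.5, 83.02 and 25.8 CPM in Foxp3+ Gpr83+ cells and 161, 75.3, 23.9 and 24.9 CPM in all other cells. Ighm was found in 117 of the 359 cells (32.6%), and was higher than in Foxp3+ Gpr83+ cells by log2 1.83 (SE 0.19, adjusted p = 5.67e-06). Free RNA held Ighm at 76.5 to 282.6 CPM, and the part of free RNA in this difference was not tested. Cd74, the class II invariant chain, was at 100.1, 47.9, 48.03 and 51.2 CPM against 20.8, 22.2, 52.8 and 23.8 CPM (log2 1.20, SE 0.28). Of 10 myeloid genes, Csf1r, Itgam, S100a8, S100a9, Clec9a and Siglech were at 0 in Foxp3+ Gpr83- cells, but the list summed to 81.8, 56.9, 76.9 and 89.1 CPM against 97.4, 49.7, 36.4 and 45.0 CPM in all other cells. In Foxp3+ Gpr83- cells nearly all of it was Cst3, encoding the protease inhibitor cystatin C, which was called higher at 76.9, 56.9, 76.8 and 87.2 CPM against 52.3, 47.3, 30.6 and 42.8 CPM. Of 10 genes of natural killer and gamma-delta T cells, Ncr1, Klrb1c, Klre1, Klra8, Gzma and Trgv2 were at 0, and the list summed to 0 to 20.8 CPM against 11.1 to 26.7 CPM. Of the CD8 genes, Cd8a was at 0 and Cd8b1 had 3, 6, 0 and 5 UMIs. Of 5 T-cell markers outside the rule, Cd4 was higher, at 73.3, 65.9, 86.5 and 81.5 CPM against 47.9, 49.5, 44.1 and 53.6 CPM in all other cells, while Trac, Trbc2 and Cd28 were lower, Trac at 300.4, 373, 317 and 532 CPM against 628, 665, 628 and 674 CPM. The part of other cell types in the results was not tested. The erythroid list summed to 307.4 CPM in the 13 cells of the female library labelled wild type and to 15.98 to 26.5 CPM in the other 3. Scrublet, at an assumed rate of 0.8% per 1000 cells, marked 40 of the 359 cells (11.1%) and 4.27% of all other cells as doublets; without the marked cells, 3060 genes were called against all other cells and 382 against Foxp3+ Gpr83+ cells.

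The libraries were then set against each other by genotype label. Foxp3+ Gpr83- cells made up 2.20%, 2.31%, 0.717% and 1.29% of kept cells, with exact 95% binomial intervals of 1.85% to 2.60%, 1.96% to 2.70%, 0.382% to 1.22% and 0.985% to 1.66%, which cover counting error only. The mean share was 2.26% ± 0.0753 (SD, n = 2) under the label knockout and 1.01% ± 0.407 (SD, n = 2) under the label wild type. Both libraries labelled knockout lay above both labelled wild type, but 2 libraries against 2 cannot give a two-sided exact permutation p under 0.333, which is the value found. The libraries labelled wild type had fewer and deeper cells. With every cell thinned to 2000 UMIs before the rule was applied, the mean shares were 1.36% ± 0.201 and 0.604% ± 0.230 (SD, n = 2 each).

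Among all Foxp3+ cells of both kinds, the Gpr83- cells made up 63.0%, 55.3%, 39.4% and 48.8%, a mean of 59.1% ± 5.41 against 44.1% ± 6.62 (SD, n = 2 each; exact permutation p = 0.333, the smallest possible). After thinning, the shares were 61.5%, 69.5%, 57.1% and 64.8%, the groups overlapped and the means were 65.5% ± 5.68 and 61.0% ± 5.43 (SD, n = 2 each; exact permutation p = 0.667). The difference of 4.51 percentage points after thinning was smaller than either SD, and the female library labelled wild type gave 14 Foxp3+ cells to it.

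**Figure D4:**
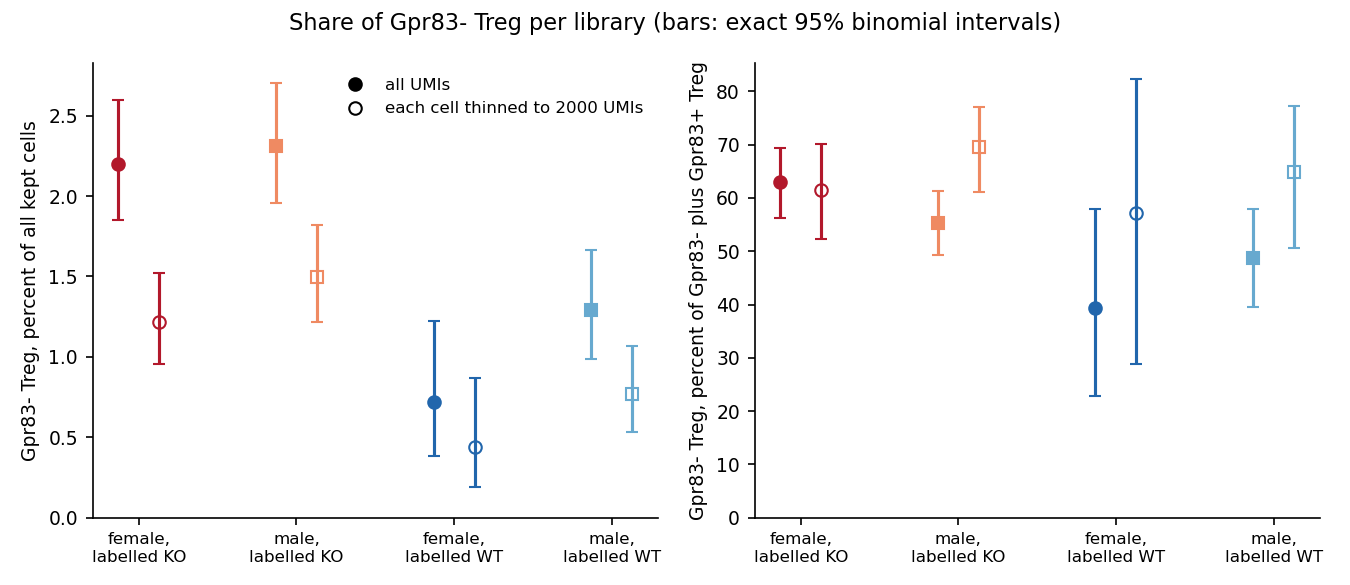
Foxp3+ Gpr83- cells as a percentage of kept cells (left) and of all cells of both Foxp3+ kinds (right) in each library, from all UMIs (filled) and after thinning each cell to 2000 UMIs (open); bars are exact 95% binomial intervals. The share of kept cells was 2.20% and 2.31% under the label knockout and 0.717% and 1.29% under the label wild type, and the right-hand shares overlapped between the labels after thinning.

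Gene levels within the Foxp3+ Gpr83- cells were compared between the labels with sex as a term. Of 6723 genes tested, 3 (0.0446%) were higher and 7 (0.104%) were lower in the libraries labelled knockout, 0.149% of the tested genes in all, and 246 had an unadjusted p under 0.05. DESeq2 called 2, and leaving out 1 library at a time gave counts from 0 to 50: 0 without the female and 2 without the male library labelled knockout, 6 without the female and 50 without the male library labelled wild type. On simulated data of this design, 28.6% of log2 changes of 1 and 90.0% of log2 changes of 2 were recovered, so that the test could miss moderate differences. The regulatory T-cell identity and effector lists had 0 of 18 and 0 of 21 tested genes called, with median log2 differences of -0.06 and 0.02, against 0.0049 over all genes tested.

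Sp110 and Sp140 encode nuclear body proteins of one family (ENSMUSG00000070034, chromosome 1, 85576899 to 85598817, and ENSMUSG00000070031, chromosome 1, 85600378 to 85645037). Sp110 was at 3.66, 2, 269 and 144 CPM (3, 2, 28 and 76 UMIs), a pooled ratio of knockout to wild-type label of 0.0167 with an exact counting interval of 0.00531 to 0.0402 (adjusted p = 2.54e-25). Sp140 was at 0, 0.999, 38.4 and 39.8 CPM (0, 1, 4 and 21 UMIs), a pooled ratio of 0.0139 with an interval of 0.000338 to 0.0848 (adjusted p = 6.30e-06). Sp110 was found in 45 cells and Sp140 in 20 cells of the libraries labelled wild type. The call of Sp110 was lost without the female library labelled knockout (adjusted p = 0.0668), and that of Sp140 without either library labelled knockout (adjusted p = 0.0822 without the male and 0.9999 without the female one) and with DESeq2 (0.718). All other cells showed the same direction, with Sp110 at 0.2696, 0.472, 102 and 84.1 CPM and Sp140 at 0.629, 0.364, 32.97 and 25.6 CPM.

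The UMIs of 4 further called genes were concentrated in few cells. Gzmb, the cytotoxic protease granzyme B, was at 61.1, 55.9, 0 and 1.89 CPM: 106 UMIs in 13 cells labelled knockout against 1 UMI labelled wild type, a pooled ratio of 36.8 with a counting interval of 6.46 to 1467 (adjusted p = 5.27e-06). However, 5 cells held 80.4% of these UMIs. Ccl5, a chemokine of effector cells, was at 35.4, 30.96, 0 and 1.89 CPM (29, 31, 0 and 1 UMIs, adjusted p = 0.0158), with 70.5% of its UMIs in 5 cells. Ccl4, a chemokine of activated cells, was at 4.88, 0.999, 134 and 36 CPM (4, 1, 14 and 19 UMIs, adjusted p = 6.23e-09), with the 14 UMIs of the female library labelled wild type in 1 cell. Mgmt, a DNA repair enzyme, was at 4.88, 23.97, 163 and 62.5 CPM (log2 -2.52, adjusted p = 2.26e-05), and its 17 UMIs in the female library labelled wild type also came from 1 cell. The intervals count UMIs as independent and so do not cover this clustering in cells. With the rule applied after thinning, the 2 genes called between the labels were Sp110 and Sp140, and none of these 4 was called. DESeq2 called 0 genes higher, so that Gzmb and Ccl5 were not called there either.

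Bcl2, Ly6c1, Nr4a3 and Pank3 were spread over more cells. Bcl2 was at 283, 345, 86.5 and 176 CPM, higher by log2 1.15 (SE 0.27, adjusted p = 0.0239) in the libraries labelled knockout. In all other cells Bcl2 was at 309.6, 319, 286 and 179 CPM. Ly6c1 was at 39.1, 72.9, 106 and 201 CPM, a log2 difference of -1.47 (SE 0.29, adjusted p = 9.88e-04), with both libraries labelled knockout below both labelled wild type. In all other cells Ly6c1 was at 108, 100.5, 118 and 85.7 CPM, where the labels overlapped. Nr4a3, an orphan receptor of the early response, was at 256, 316, 922 and 373 CPM (log2 -0.99, SE 0.24), and it had the opposite sign, 0.13, when cells were thinned before the rule was applied. Pank3, a pantothenate kinase, was at 40.3, 38.96, 173 and 73.9 CPM (log2 -1.41, SE 0.34). Each of these 4 calls was lost without either library labelled knockout, and those of Bcl2, Nr4a3 and Pank3 also without the female library labelled wild type, and that of Ly6c1 without the male library labelled wild type.

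**Figure D5:**
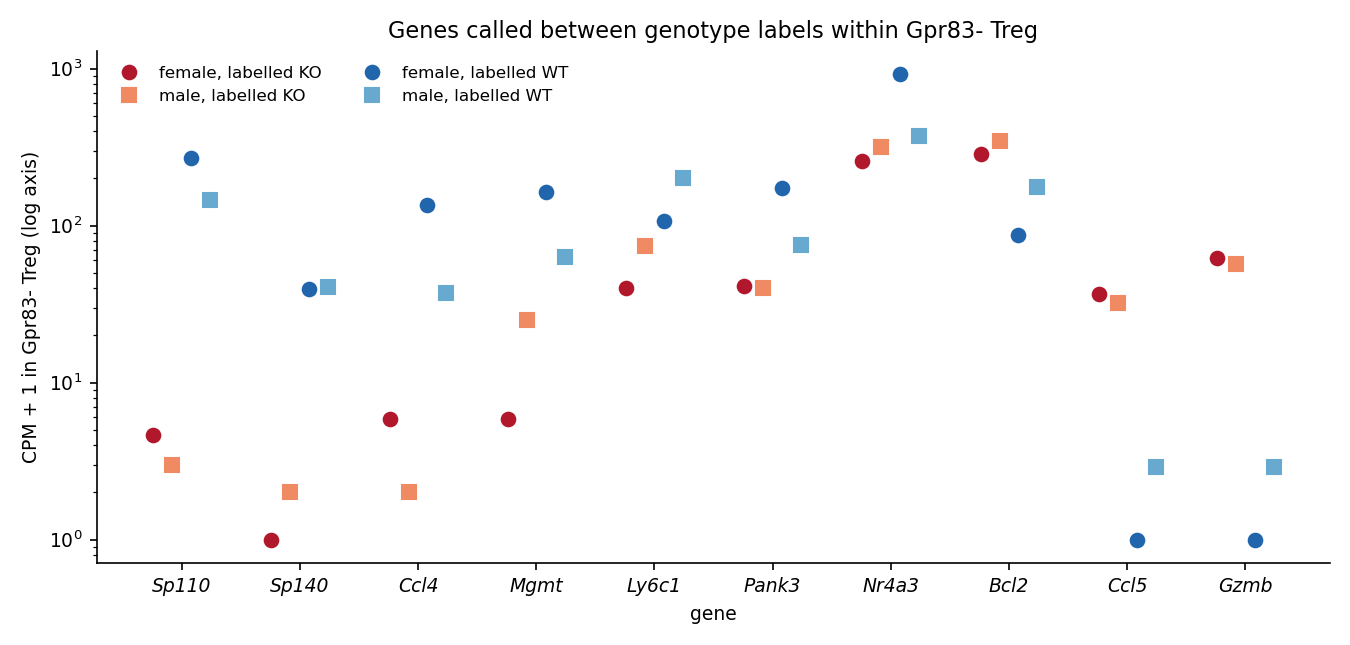
CPM plus 1 (log axis) in Foxp3+ Gpr83- cells of each library for the 10 genes called between the genotype labels, ordered by log2 difference; colours mark the genotype label, circles female and squares male libraries. For all 10 genes both libraries labelled knockout lay on the same side of both libraries labelled wild type, but 5 cells held 80.4% of the UMIs of Gzmb and 86.8% of those of Ccl4.

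Defining genes of the population were set beside each label as well. Areg averaged 156 ± 60.2 CPM under the label knockout and 174 ± 53.0 CPM under the label wild type (SD, n = 2 each), and Itgb8 119 ± 2.14 and 138 ± 21.6 CPM (SD, n = 2 each). The labels differed by less than the larger SD for both genes, and neither was called. Ctla4 was at 412, 351, 461 and 171 CPM and Icos, the inducible costimulator, at 448, 497, 202 and 282 CPM, and neither was called (log2 0.49, SE 0.25, adjusted p = 0.999, and log2 0.93, SE 0.25, adjusted p = 0.154). For Icos both libraries labelled knockout lay above both labelled wild type, and 1 alternative called it.

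Whether the genotype labels differed in another way in Foxp3+ Gpr83- cells than in all other cells was asked with an interaction term. Of 11318 genes tested, 29 (0.256%) were called, 6 (0.053%) with a more positive and 23 (0.203%) with a more negative difference between the labels in Foxp3+ Gpr83- cells, and 527 had an unadjusted p under 0.05. DESeq2 called 1. The count was 7 without the female and 11 without the male library labelled knockout, 40 without the female and 109 without the male library labelled wild type. Of 20 identity genes 4 were among the negative ones (Swap70, Cd83, Plagl1 and Penk), and of 26 effector genes 1, Tnfrsf4. Tnfrsf4 was at 2366, 2793, 3304 and 2594 CPM in Foxp3+ Gpr83- cells and 423, 413, 265 and 285 CPM in all other cells, an interaction of log2 -0.65 (SE 0.15, adjusted p = 0.00904). In the other cells both libraries labelled knockout were higher, and in Foxp3+ Gpr83- cells the labels overlapped. Gata3 was at 398, 339, 720.5 and 313 CPM and 67.7, 54.4, 49.8 and 25.7 CPM (log2 -0.998, SE 0.18), and Cd83 at 287, 361, 528 and 352 CPM and 66.6, 59.9, 48.4 and 39.2 CPM (log2 -0.80, SE 0.18). The calls of Tnfrsf4, Gata3 and Cd83 were each lost with DESeq2 and without either library labelled knockout, with adjusted p up to 0.998 for Gata3 and 1 for the other two. Foxp3+ Gpr83+ cells, which express these genes, are part of the other cells and made up 1.29%, 1.86%, 1.10% and 1.36% of kept cells, and their part in these values was not tested.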

How the data were processed

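UMI counts per gene and barcode, as deposited by the authors without normalization, were used for 4 libraries; Cell Ranger 6.0.2 and mm10 stand in the submitters' processing notes, while the annotation and the use of strand are not given in the sources used here. Barcodes with at least 2000 UMIs, 500 genes and at most 10% mitochondrial UMIs were kept. Counts were summed per library and population, and CPM are sums scaled to 1000000 UMIs. edgeR 4.0.16 (TMM, filterByExpr, quasi-likelihood tests, Benjamini-Hochberg adjustment over all genes) was fitted with library terms for populations and a sex term for genotype labels; calls are genes with adjusted p values under 0.05, and log2 differences come from these fits. DESeq2 1.42.0 was an alternative. The members and gene lists were chosen with earlier results of these data known. Named genes were all list genes plus, per comparison, the 12 called genes with the largest positive and the 12 with the largest negative difference, at 20 CPM or more in a group and with 1 direction in every library. The 7 genes of the rule stayed out of counts of calls. Of the list genes, Mx1 was not found by symbol, and some named genes are not reported here. Doublets were scored with scrublet in scanpy 1.11.5; no cell was removed except in 1 alternative. Cells were thinned to 2000 UMIs without replacement. The fit was tested on simulated data with 200 changed genes: at a log2 change of 1 it recovered 64.6% (all other cells), 78.4% (Foxp3+ Gpr83+ cells), 28.6% (labels) and 19.6% (interaction). Intervals of shares are exact binomial and those of count ratios exact, at 95%. Gene positions are from GENCODE M21 on GRCm38, the assembly behind mm10.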

Additional observations from a re-analysis of the deposited data

Results flagged for a closer look

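The interaction term of edgeR called the difference between the genotype labels unlike in Foxp3+ Gpr83- cells and in all other cells for 24 named genes. Most of these calls depended on the processing. Of the 29 genes called in all, 10 were called with the rule applied after thinning, and DESeq2 called 1. Nr4a3 and Il10 changed sign after thinning. Without the male library labelled wild type Il4, Il13 and Plagl1 changed sign, to log2 5.65, 6.41 and 0.14. Among genes detected in 45 or more Foxp3+ Gpr83- cells, the interaction was log2 -0.998 for Gata3, -0.94 for Plagl1, -0.80 for Cd83, -0.76 for Nr4a3, -0.72 for Swap70, -0.65 for Tnfrsf4, -1.71 for Ly6c1 and -1.27 for Pank3. It was 0.96 for Isy1, 1.14 for Gnpnat1 and 1.84 for Cdkn1a in the other direction. Ighm (-2.41) and Igkc (-5.44, in 31 Foxp3+ Gpr83- cells) were higher under the label knockout in the other cells, where Igkc was at 334, 178, 13 and 3.64 CPM. The remaining genes rested on fewer Foxp3+ Gpr83- cells: Il4 (-6.74) and Il13 (-5.08) on 2 cells each, Il10 (-4.94) on 6, Car2 (-3.81) on 4, Ccl4 (-3.44) on 10, Hist1h2ap (13.03, a value that depends on the prior count, since both libraries labelled wild type had 0 UMIs) on 13, Gzmb (4.36) on 14, Ccl5 (3.88) on 17, Penk (-3.06) and Mgmt (-2.73) on 21 each and Rgs16 (-1.68) on 37. Of the 86 UMIs of Hist1h2ap, 64 came from 1 cell of the female library labelled knockout.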

How the results depend on the processing

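Against all other cells 3111 genes were called; DESeq2 called 1993 and the restriction to the interquartile UMI range 1973, and leaving out 1 library gave 2098 to 3268. Against Foxp3+ Gpr83+ cells 355 were called, against 153 with DESeq2, 185 in the interquartile UMI range, 111 in cells with at least 4000 UMIs and 79 to 437 without 1 library. Between the labels 10 were called, against 2 with DESeq2, 4 with at least 2 Foxp3 UMIs, 5 with at least 4000 UMIs, 2 after thinning, 3 without the sex term and 0 to 50 without 1 library. The interaction gave 29 calls, 1 with DESeq2, 17 after thinning and 7 to 109 without 1 library; in the last the lone library of a label is assumed to vary like the others. The difference in share of 1.25 percentage points became 0.752 after thinning and 12.98 among Foxp3+ cells with CD3, and was 0.962 to 1.54 without 1 library. Ikzf4 against Foxp3+ Gpr83+ cells changed to -0.0099 without the male library labelled wild type (range without 1 library -0.0099 to 0.29). Within genotype comparisons, thinning reversed Nr4a3 (0.13 between labels, 0.14 in the interaction) and Il10 (8.89), and leaving out the male library labelled wild type reversed Il4, Il13 and Plagl1 in the interaction and Ctla4 between labels; without 1 library these ranged from -14.03 to 5.65, -13.73 to 6.41, -1.20 to 0.14 and -0.21 to 1.12; the cause was not tested. Populations were paired by library and genotype labels by sex, since the labels carry no replicate numbers; with no replicate block, 3081 genes were called against all other cells and 330 against Foxp3+ Gpr83+ cells. Of the named genes, 6 lost their call in the former, 1 in the latter and 7 between labels without the sex term. The female library labelled wild type gave 13 cells, and on simulated data of the comparison between labels 0% of log2 changes of 0.5 were recovered, so that differences of that size were not detectable at this depth.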
